A study of Mus musculus with 12 samples.

Results

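The 10 genes described here encode parts of the neuronal cytoskeleton. They are the neurofilament subunits Nefl, Nefm, Nefh and Ina, the microtubule-associated proteins Mapt and Map2, the beta-tubulins Tubb3, Tubb2b and Tubb4a, and the alpha-tubulin Tuba4a. They were chosen by name, with earlier results of these data known. Measured signal entered the rule only in the choice of a probe set for each gene. All 10 had at least 1 probe set with a single gene symbol, among 18193 such genes on the array, and all 10 were among the 12600 genes bright enough to be tested. Where a gene had several probe sets, the one brightest on average over the 12 samples gave its value, and the others served as a check.

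RNA was taken from mice at postnatal day 0 (P0) and postnatal day 5 (P5), and each age had 3 wild-type and 3 NR3B knockout samples, 12 arrays in all. NR3B is read here as the product of Grin3b, a subunit of the NMDA-type glutamate receptor. The labels name the tissue both as brain and as brain with hindbrain and spinal cord, and do not give the strain, the deleted segment of the gene, or whether tissue of several animals was pooled. Nothing in the labels ties the numbered samples of a group to different animals. The p-values below therefore reflect variation among arrays that could be technical.

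The values are normalized log2 levels, log2(signal + 16) after quantile normalization of the arrays, and a difference is a log2 difference on that scale. Median signals of the arrays before normalization were 607 to 737. The Grin3b probe set read 285 ± 79.3 in P0 wild type against 55.7 ± 35.9 in P0 knockout, and 199 ± 64.8 against 44.5 ± 4.44 at P5 (signal, mean ± SD, n = 3 each). P0 wild-type sample 1 stood apart by an 18S ribosomal RNA signal of 7728, where the other samples read 48911 to 110512. P0 wild-type samples 1 and 2 also received low weights, 0.359 and 0.189, when arrays were weighted by how well they fitted their group, while sample 3 received 2.45. Results that rest on them are therefore also given without both. Such fits keep only sample 3 in P0 wild type, and that sample stood apart in some markers. Its summed signal of sensory ganglion neuron markers, 25931, was the highest of all samples. Its summed signal of general neuron markers, 256593, was the lowest at P0. All 8 general neuron markers and 10 of 10 Hox genes of hindbrain and spinal cord position that had a probe set were above the filter on dim probe sets. Of 7 forebrain markers with a probe set, 3 were above it (Emx2, Lhx2 and Neurod6) and 4 below it (Emx1, Tbr1, Dlx1 and Dlx2).

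Neurofilaments are the intermediate filaments of neurons. The light chain Nefl and the middle chain Nefm co-assemble with the heavy chain Nefh and with alpha-internexin (Ina), and the filaments set the calibre of large axons. During development alpha-internexin appears early, the light and middle chains accompany axon growth, and the heavy chain accumulates late, as axons mature. Microtubules are polymers of alpha- and beta-tubulin dimers, and the tubulin genes differ in when and where they are used. Tubb3 and Tubb2b are typical of young neurons, Tubb4a is abundant in mature neurons and in myelinating oligodendrocytes, and Tuba4a is an alpha-tubulin of the more mature nervous system. Tau, the product of Mapt, binds microtubules mainly in axons, and Map2 binds them mainly in dendrites and cell bodies.

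From P0 to P5, averaged over both genotypes, 7 of the 10 genes fell (Nefl, Nefm, Ina, Mapt, Map2, Tubb3 and Tubb2b) and 1 rose (Tuba4a), at an adjusted p under 0.05 in limma with Benjamini-Hochberg adjustment over all 12600 genes. Nefh and Tubb4a did not pass, at 0.15 (SE 0.10) and 0.23 (SE 0.10). Over all genes tested, 29.6% passed in this comparison, 15.1% lower and 14.6% higher. The median difference of the 10 genes was -0.35, against 0.00 over all genes tested. In bulk tissue, fewer cells of a type and less RNA per cell cannot be told apart. No member passed in any comparison of knockout with wild type.

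Promoter sequences of 5 of the 10 genes (Map2, Tuba4a, Tubb3, Tubb4a and Ina) were found in the RefSeq promoter table of mouse assembly GRCm38.p6, which holds 250 bases before and 50 bases after each start of transcription. Those of 3 genes are shown because they carry the largest contrasts in the data. Tuba4a rose and Tubb3 fell, and the ratio of that pair moved further than that of any other pair compared, while the estimated fall was largest for Ina. Tuba4a lies on the reverse strand at chr1:75219245-75219544, Tubb3 on the forward strand at chr8:123411303-123411602, and Ina on the forward strand at chr19:47014431-47014730. Capitals mark TATAA, the core of a TATA box, and GGGCGG, the core of a GC box, on either strand.
Tuba4a: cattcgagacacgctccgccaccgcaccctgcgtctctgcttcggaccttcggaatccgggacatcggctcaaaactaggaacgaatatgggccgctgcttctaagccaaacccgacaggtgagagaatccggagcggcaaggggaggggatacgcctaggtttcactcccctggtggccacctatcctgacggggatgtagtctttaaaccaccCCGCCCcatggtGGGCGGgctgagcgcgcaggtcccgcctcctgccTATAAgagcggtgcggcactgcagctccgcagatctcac
Tubb3: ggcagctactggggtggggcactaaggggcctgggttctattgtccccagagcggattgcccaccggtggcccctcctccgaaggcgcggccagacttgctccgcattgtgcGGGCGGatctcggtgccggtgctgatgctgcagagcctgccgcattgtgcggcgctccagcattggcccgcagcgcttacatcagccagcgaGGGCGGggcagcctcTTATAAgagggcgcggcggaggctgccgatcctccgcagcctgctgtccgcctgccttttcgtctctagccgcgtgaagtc
Ina: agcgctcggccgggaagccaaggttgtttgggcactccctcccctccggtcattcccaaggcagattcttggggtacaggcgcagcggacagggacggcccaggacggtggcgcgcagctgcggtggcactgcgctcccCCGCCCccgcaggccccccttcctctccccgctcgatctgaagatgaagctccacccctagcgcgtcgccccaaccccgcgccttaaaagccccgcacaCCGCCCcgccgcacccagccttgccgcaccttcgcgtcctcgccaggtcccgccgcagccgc

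TATAA or its reverse complement TTATA was present in 2 of the 5 promoters, those of Tubb3 and Tuba4a, and in 24.9% of all 32851 promoters of the same length. In Tubb3 both orientations overlapped each other at 30 and 31 bases before the start, whereas in Tuba4a the only match lay 11 bases after it. GGGCGG or CCGCCC was present in 4 of the 5, against 35.7% of all promoters, with 5 matches in Map2, 2 each in Tuba4a, Tubb3 and Ina, and 0 in Tubb4a. TGACGT, the core of a cyclic AMP response element, or its reverse complement ACGTCA, was found in Tubb4a at 50 bases before the start, in 1 of the 5 and in 7.51% of all promoters. These matches describe the letters in each window. GC box cores were present in Tuba4a, which rose, and in Map2, Tubb3 and Ina, the genes with a sequence here that fell.

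Among the neurofilament subunits, the 2 smaller chains and alpha-internexin fell with age, and the heavy chain did not pass the test. Nefl, the light chain around which the other subunits assemble, read 16.53, 16.35 and 16.49 in the P0 wild-type samples and 16.07, 16.06 and 16.15 in the P5 wild-type samples. In knockout it read 16.41, 16.19 and 16.26 at P0 and 15.94, 16.13 and 15.93 at P5. Every P5 sample lay below every P0 sample of its genotype. The difference averaged over genotypes was -0.33 (SE 0.07), or 1.26-fold lower (limma, adjusted p = 0.00516). It was -0.37 in wild type (adjusted p = 0.0285) and -0.29 in knockout (adjusted p = 0.0979).

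Nefm, the middle chain, lies next to Nefl in the genome with no coding gene between them. Its level was 15.62, 15.60 and 15.23 in P0 wild type and 15.17, 15.15 and 15.14 in P5 wild type, and 15.44, 15.30 and 15.34 in P0 knockout and 15.05, 14.93 and 15.10 in P5 knockout. P5 samples were again lower in both genotypes, with the P5 wild-type samples almost level with each other. The average difference of -0.33 (SE 0.08) was the same size as that of Nefl and passed the limma test (adjusted p = 0.00896), while neither genotype passed alone (-0.33 with adjusted p = 0.0628 in wild type, -0.34 with adjusted p = 0.0868 in knockout). Without P0 wild-type samples 1 and 2 the average was -0.21 (adjusted p = 0.034) and the wild-type difference -0.08 (adjusted p = 0.643). In the deposited signals before normalization, the P0 and P5 wild-type samples of Nefm overlapped.

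Ina, alpha-internexin, had the largest estimated fall of the 10 genes, although that of Mapt differed from it by less than the standard error of either. Its level was 16.01, 15.58 and 15.96 in P0 wild type and 15.07, 15.19 and 15.13 in P5 wild type. In knockout the P0 samples read 15.65, 15.33 and 15.41 and the P5 samples 15.15, 15.03 and 14.999. The 2 highest values were P0 wild-type samples, and no P5 sample reached a P0 sample of either genotype. Averaged over genotypes the difference was -0.56 (SE 0.09), or 1.47-fold lower (limma, adjusted p = 0.000619), with -0.71 in wild type (adjusted p = 0.00267) and -0.40 in knockout (adjusted p = 0.0655).

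Nefh, the heavy chain whose tail domain is heavily phosphorylated in mature axons, read 12.63, 12.86 and 12.62 in P0 wild type and 12.97, 12.93 and 12.92 in P5 wild type, and 12.41, 12.66 and 12.85 in P0 knockout and 12.52, 12.72 and 12.86 in P5 knockout. The P5 wild-type samples lay above the P0 wild-type samples, whereas the knockout samples of both ages overlapped. Over both genotypes it differed by 0.15 (SE 0.10), with a 95% interval of -0.06 to 0.36 (limma, adjusted p = 0.264).

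**Figure D1:**
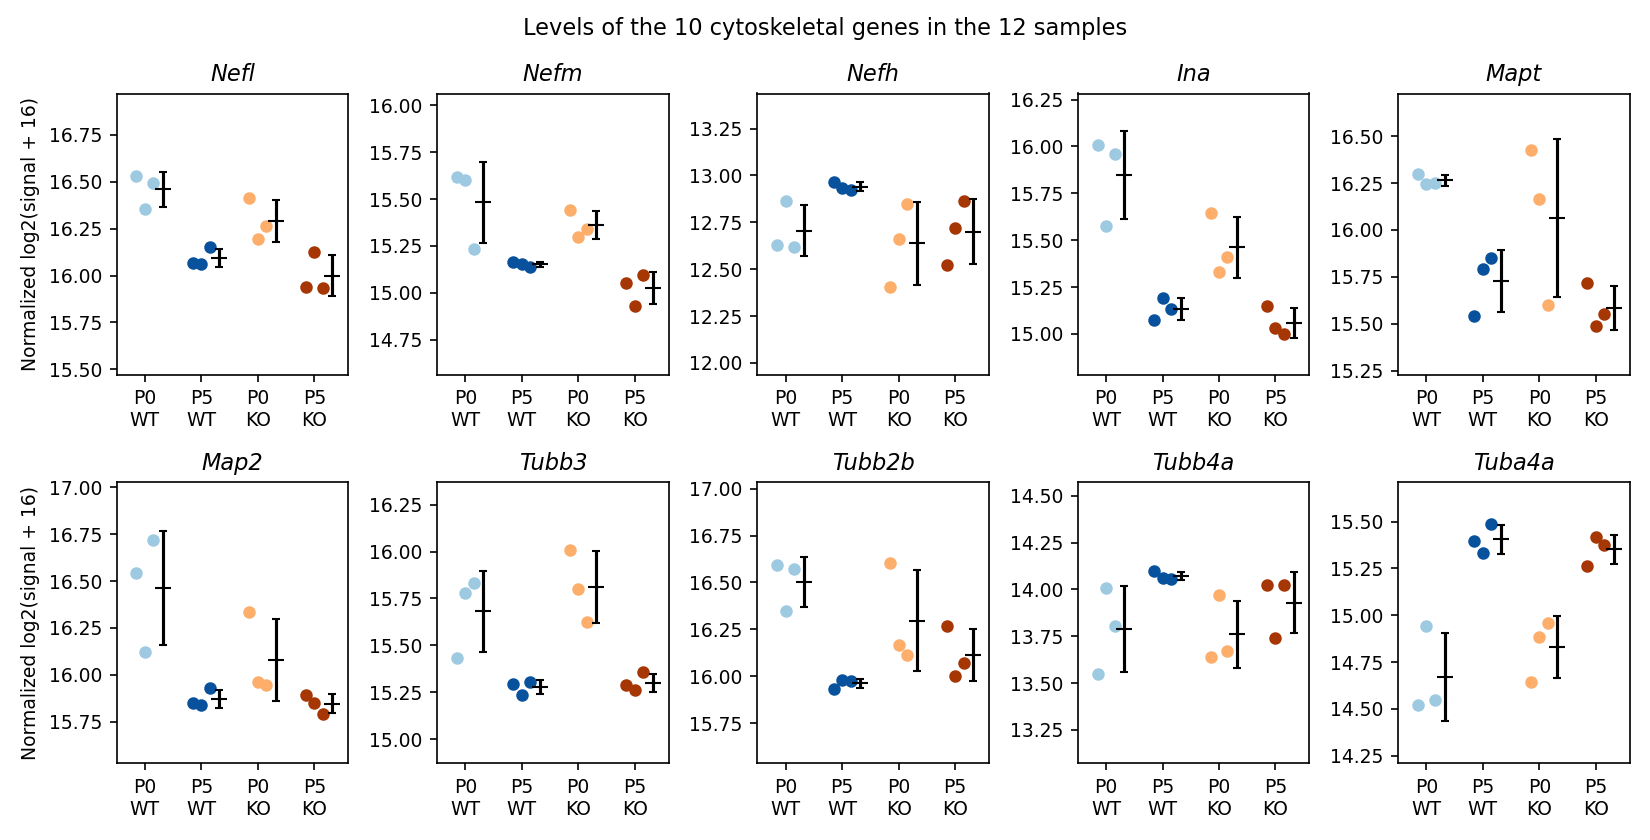
Normalized log2(signal + 16) of each of the 10 genes in the 12 samples, grouped as wild type and NR3B knockout at P0 and P5; each point is a sample, and the black marks and bars give the mean ± SD of 3 samples. P5 points of Ina sit below all P0 points and P5 points of Tuba4a above all P0 points, while Nefh in knockout overlaps between the ages.

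Both microtubule-associated proteins fell with age. Mapt, which encodes tau, read 16.30, 16.24 and 16.25 in P0 wild type and 15.54, 15.79 and 15.85 in P5 wild type. In knockout it read 16.43, 16.17 and 15.60 at P0, where sample 3 was far below the others, and 15.72, 15.49 and 15.55 at P5. The ages did not overlap in wild type, and in knockout P0 sample 3 lay within the P5 range, although in the deposited signals the knockout ages did not overlap either. The P0 wild-type samples, close to each other after normalization, were 62136, 97474 and 62136 in deposited signals. Averaged over genotypes, P5 differed from P0 by -0.51 (SE 0.12), or 1.42-fold lower (limma, adjusted p = 0.00694), with -0.54 in wild type (adjusted p = 0.0424) and -0.48 in knockout (adjusted p = 0.0946).

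Map2, the dendritic counterpart of tau, read 16.54, 16.12 and 16.72 in P0 wild type and 15.85, 15.84 and 15.93 in P5 wild type, and 16.33, 15.96 and 15.95 in P0 knockout and 15.89, 15.85 and 15.79 in P5 knockout. The 6 P5 samples lay in a narrow band below the P0 samples, which were spread widely. The average difference was -0.41 (SE 0.10), or 1.33-fold lower (limma, adjusted p = 0.01), with -0.59 in wild type (adjusted p = 0.0152) and -0.24 in knockout (adjusted p = 0.359).

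The tubulins moved in both directions. Tubb3, the class III beta-tubulin used as a marker of neurons, read 15.43, 15.78 and 15.83 in P0 wild type and 15.29, 15.24 and 15.30 in P5 wild type, and 16.01, 15.80 and 15.63 in P0 knockout and 15.29, 15.26 and 15.36 in P5 knockout. All P5 samples were below the P0 samples of their genotype, although the deposited wild-type signals overlapped before normalization. The average difference was -0.46 (SE 0.09), or 1.37-fold lower (limma, adjusted p = 0.00212). Tubb3 was the only member that fell in wild type (-0.40, adjusted p = 0.0412) and in knockout (-0.51, adjusted p = 0.0216) when each was tested alone.

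Tubb2b, a beta-tubulin of newly formed neurons, read 16.59, 16.35 and 16.57 in P0 wild type and 15.93, 15.98 and 15.97 in P5 wild type, and 16.61, 16.17 and 16.11 in P0 knockout and 16.27, 16 and 16.07 in P5 knockout. The wild-type ages were well apart. In knockout they overlapped, while in the deposited signals P5 knockout lay below P0 knockout without overlap. The average difference was -0.36 (SE 0.10) (limma, adjusted p = 0.0129), with -0.54 in wild type (adjusted p = 0.0153) and -0.18 in knockout (adjusted p = 0.451). Tubb2a, its close copy and direct neighbour in the genome, fell by 0.26 (limma, adjusted p = 0.0252), a call that was lost with the deposited scaling. Beta-tubulin genes resemble each other in coding sequence, and how far transcripts of one reach the probes of another was not tested.

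Tubb4a, the beta-tubulin that is altered in a group of human myelination disorders, read 13.55, 14.00 and 13.81 in P0 wild type and 14.10, 14.06 and 14.06 in P5 wild type, and 13.64, 13.97 and 13.67 in P0 knockout and 14.02, 13.74 and 14.02 in P5 knockout. P5 lay above P0 in wild type, with overlap in knockout. The average difference was 0.23 (SE 0.10), with a 95% interval of 0.02 to 0.44 before adjustment, and it missed the threshold (limma, adjusted p = 0.0977).

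Tuba4a, an alpha-tubulin, was the only member that rose. It read 14.52, 14.94 and 14.55 in P0 wild type and 15.39, 15.33 and 15.49 in P5 wild type, and 14.64, 14.89 and 14.96 in P0 knockout and 15.27, 15.42 and 15.37 in P5 knockout. Every P5 sample lay above every P0 sample. The average difference was 0.63 (SE 0.09), or 1.55-fold higher (limma, adjusted p = 0.000274), with 0.74 in wild type (adjusted p = 0.0024) and 0.52 in knockout (adjusted p = 0.022).

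Within wild type alone, 6 members fell (Nefl, Ina, Mapt, Map2, Tubb3 and Tubb2b) and 1 rose (Tuba4a), while 19.4% of all genes passed in limma, 8.56% lower and 10.8% higher. All 10 were separated between the ages, 7 lower and 3 higher, where 35.4% of all genes did not overlap, 17% lower and 18.4% higher. Within knockout alone, 1 member fell (Tubb3) and 1 rose (Tuba4a), with 10.5% of all genes passing, 4.95% lower and 5.53% higher. There 5 members lay lower and 1 higher without overlap, where 33.4% of all genes did not overlap, 18.7% lower and 14.6% higher. In the deposited signals before normalization, the separations were 5 lower and 3 higher in wild type, and 7 lower and 1 higher in knockout. The share of all genes without overlap was not counted in deposited signals, here or between the genotypes below. These counts therefore show only that which members separated depended on the normalization. That more members passed in wild type than in knockout does not show that the genotypes differed, since no member passed the test of the interaction. The counts rest on single arrays. In wild type, leaving out 1 P0 array brought the count to 3 (sample 1), 8 (sample 2) or 3 (sample 3), and leaving out 1 P5 array to 2 (samples 1 and 2) or 3 (sample 3). Over all genes, where 2442 passed, the same steps gave 1354, 4830 and 1443 for the P0 arrays and 1199, 1229 and 1241 for the P5 arrays. In knockout, leaving out 1 P0 array brought it to 0, 1 or 3 (samples 1, 2 and 3), and leaving out 1 P5 array to 1, 0 or 0. Over all genes, where 1321 passed, these steps gave 1012, 980.0 and 979 for the P0 arrays and 803, 654 and 697 for the P5 arrays. All arrays enter 1 estimate of the spread, and the knockout count was also 5 when P0 wild-type sample 2 was dropped (1971 of all genes) and 3 when P0 wild-type sample 1 or 3 was.

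Without P0 wild-type samples 1 and 2, the same 8 members passed in the average over genotypes, with Nefl at -0.34, Ina at -0.62, Mapt at -0.50, Map2 at -0.54, Tubb3 at -0.53, Tubb2b at -0.39 and Tuba4a at 0.70. Nefh and Tubb4a again missed the threshold, at 0.19 and 0.22. With the deposited scaling and no quantile normalization the same 8 passed as well, from -0.51 for Ina to 0.62 for Tuba4a. Of the 12596 genes then tested, 1801 passed lower and 1899 higher in that average. Only 3 members passed in wild type alone with this scaling. The count over all genes in that comparison is not given here, so the smaller number is not read as a result about the members.

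**Figure D2:**
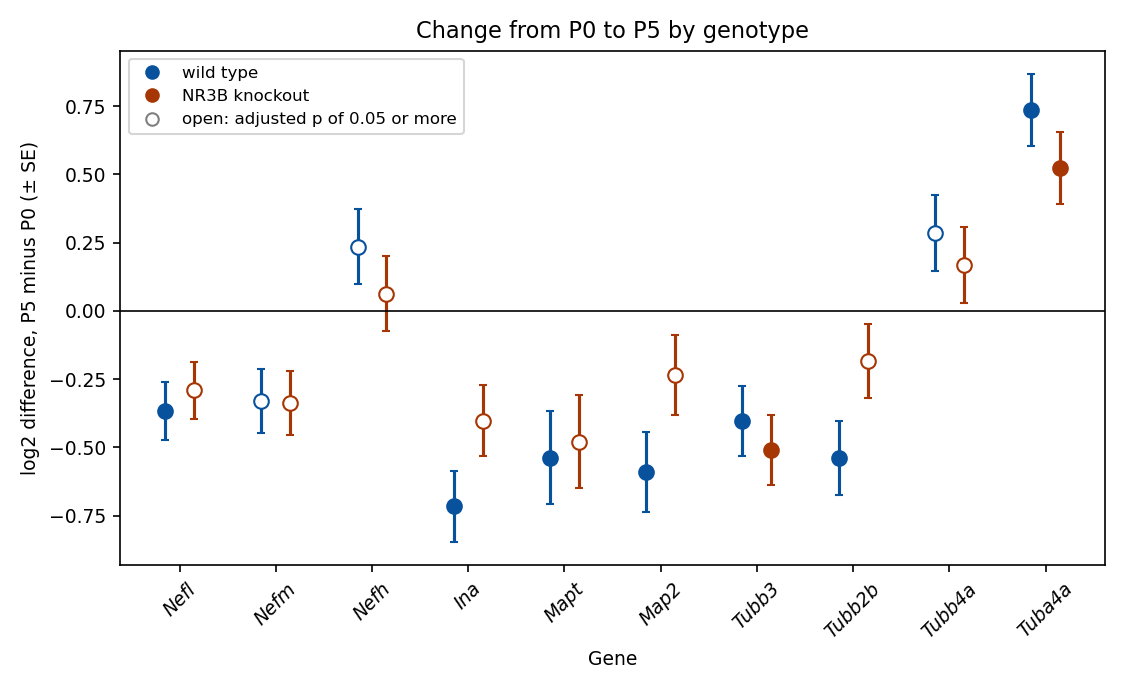
Log2 difference between P5 and P0 with its standard error for each gene, in wild type (blue) and in NR3B knockout (brown); filled points passed an adjusted p of 0.05 in limma and open points did not. Differences run from -0.71 for Ina to 0.74 for Tuba4a in wild type, and from -0.51 for Tubb3 to 0.52 for Tuba4a in knockout.

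Ratios between members of a role ask whether they changed unequally, and they do not depend on the overall scale of an array. For 13 pairs the change of the log2 ratio from P0 to P5, averaged over genotypes, was tested by an exact two-sided permutation of the age labels within each genotype, with 400 relabelings and a smallest possible p of 0.005. After Benjamini-Hochberg adjustment over the 13 pairs, 9 changed. Relative to the other subunits the heavy chain gained. The ratio of Nefh to Nefl moved by 0.48, that of Nefh to Nefm by 0.48 and that of Nefh to Ina by 0.71 (exact permutation, adjusted p = 0.0186 each). Nefl gained on Ina by 0.23 (exact permutation, adjusted p = 0.0217), and this call was lost with the deposited scaling, without P0 wild-type samples 1 and 2, and on leaving out any of 4 single arrays (sample 1 of P0 knockout, samples 1 and 3 of P5 wild type, sample 2 of P5 knockout) (exact permutation, adjusted p = 0.0506 to 0.101). The ratio of Nefl to Nefm moved by 0.00 with a standard error of 0.10 (exact permutation p = 0.965), and by -0.13 without P0 wild-type samples 1 and 2, again without passing. Nefm to Ina moved by 0.23 without passing (exact permutation, adjusted p = 0.136), and passed without P0 wild-type sample 2, at 0.32.

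Among tubulins, Tuba4a gained on all 3 beta-tubulins, by 1.09 on Tubb3, 0.99 on Tubb2b and 0.40 on Tubb4a (exact permutation, adjusted p = 0.0186 each). The first of these is a 2.12-fold change of the ratio. Tubb4a gained on Tubb3 by 0.68 (exact permutation, adjusted p = 0.0186) and on Tubb2b by 0.59 (exact permutation, adjusted p = 0.0217). Without P0 wild-type samples 1 and 2, the last was 0.61. With 1 P0 wild-type sample left there are fewer relabelings, and the smallest possible p is higher. A call lost in that setting, for this pair or for Nefl to Ina, does not by itself show a weaker ratio. The ratios of Tuba4a to Tubb3, Tuba4a to Tubb2b and Tubb4a to Tubb3 separated all P5 from all P0 samples in both genotypes, with the smallest p the design allows. The pair that fell together, Tubb3 and Tubb2b, moved by -0.10 in its ratio, and by -0.18 and past the threshold without P0 wild-type sample 1. The ratio of Mapt to Map2 moved by -0.10, and with all arrays neither of these ratios passed (exact permutation, adjusted p = 0.498 each). These ratios show unequal change and not which member of a pair moved.

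**Figure D3:**
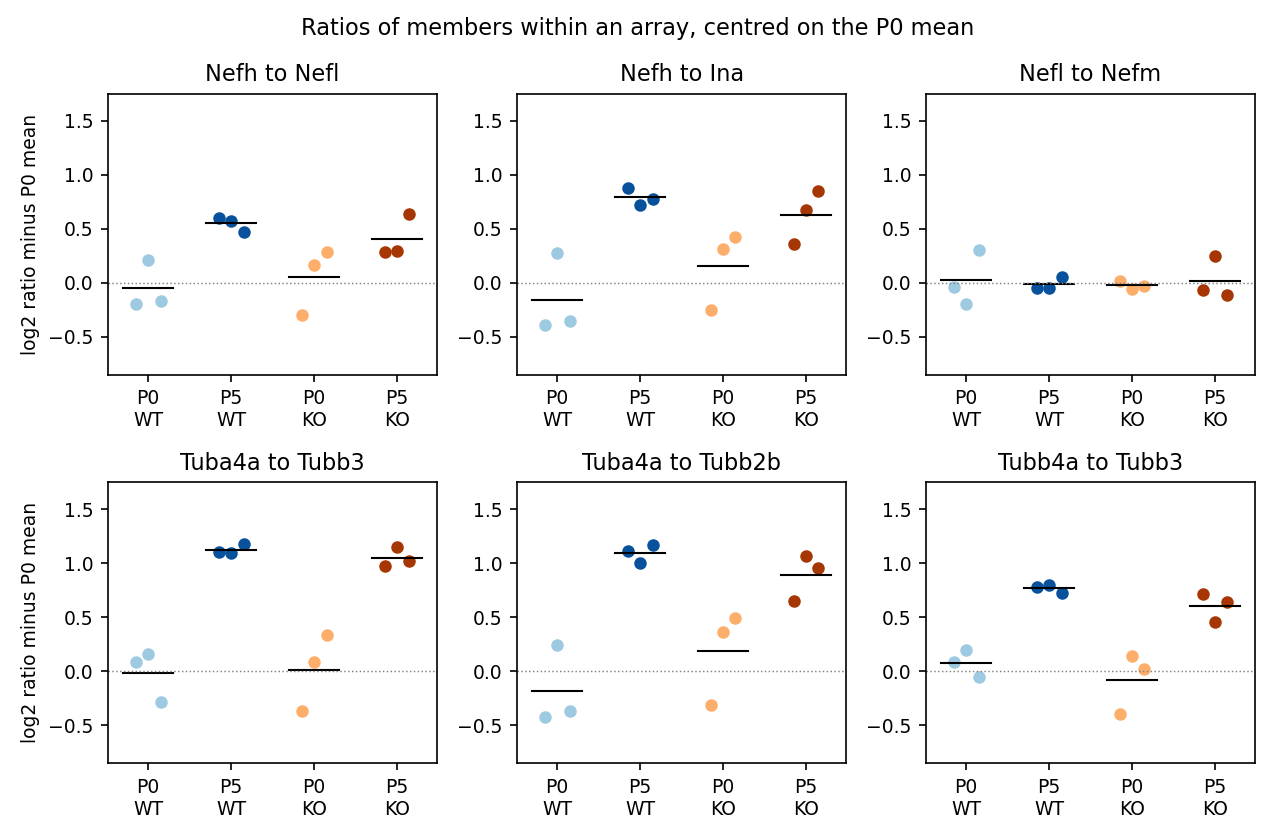
Log2 ratio of 2 genes within each array, minus the mean over the P0 samples, for 6 of the 13 pairs; points are samples and bars are means of 3. The ratio of Tuba4a to Tubb3 lies higher in all 6 P5 samples than in all P0 samples of the same genotype, and the ratio of Nefl to Nefm overlaps.

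The 10 genes had 21 probe sets, several for 5 genes and 1 for each of the others. Averaged over genotypes, every probe set of a gene had the same sign of change, 16 below 0 and 5 above 0. The 4 Mapt probe sets ranged from -0.73 to -0.51, the 4 Map2 probe sets from -0.62 to -0.17 and the 3 Ina probe sets from -0.56 to -0.34. The second Nefl probe set read -0.47. Not every probe set of a called gene passed in this average. Adjusted p over all probe sets was 0.072, 0.186 and 0.529 for the dimmer Map2 probe sets (limma). It was 0.0934 for the dimmest of Ina and 0.965 for the dimmest of Tuba4a (limma). In wild type alone the Ina probe sets read -0.71, -0.40 and -0.08 (limma, adjusted p over all probe sets of 0.009, 0.052 and 0.852), and in knockout -0.40, -0.44 and -0.61 (adjusted p of 0.16, 0.0453 and 0.0805). For Tuba4a the second probe set read 0.61, while the dimmest read 0.02, and -0.01 in wild type alone. Between genotypes at P0 the probe sets of Ina disagreed in sign, with knockout minus wild type of -0.39, -0.13 and 0.41, while the 4 of Map2 read -0.33 to -0.92. None of these 7 passed (limma, adjusted p over all probe sets of 0.369 to 0.656).

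The comparison of NR3B knockout with wild type called no member. At P0, 0.0238% of all genes passed in limma (3 of 12600, 0.0159% higher and 0.00794% lower, against 2033 at an unadjusted p under 0.05), and of the members 0 passed and 2 had an unadjusted p under 0.05. These were Ina at -0.39 (SE 0.13), with a 95% interval of -0.66 to -0.11 and an adjusted p of 0.287, and Map2 at -0.38 (SE 0.15), with an interval of -0.70 to -0.06 and an adjusted p of 0.29 (limma). The P0 knockout samples of every member overlapped the P0 wild-type samples, while 10.2% of all genes did not overlap, 6.65% higher and 3.52% lower in knockout. In the deposited signals before normalization, Ina alone was lower in knockout without overlap. The remaining intervals at P0 were -0.40 to 0.06 for Nefl, -0.37 to 0.13 for Nefm, -0.36 to 0.23 for Nefh and -0.57 to 0.17 for Mapt. For the tubulins they were -0.14 to 0.40 for Tubb3, -0.50 to 0.09 for Tubb2b, -0.33 to 0.27 for Tubb4a and -0.12 to 0.44 for Tuba4a.

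The P0 result depended on single arrays. Without P0 wild-type sample 2, Ina was -0.51 (limma, adjusted p = 0.00707) and Map2 -0.54 (adjusted p = 0.00833), 2 members called where 2680 of all genes passed. After quantile normalization, sample 2 was the lowest of P0 wild type for both genes. It was not the lowest in the deposited signals of samples 1, 2 and 3. These were 52141, 53812 and 52722 for Ina, and 74838, 87209 and 87432 for Map2. For Nefl, Mapt and Tubb2b too, sample 2 was the lowest of P0 wild type after normalization, while it was the highest in deposited signals. Without P0 wild-type samples 1 and 2, Map2 was -0.63 (adjusted p = 0.0398) and Ina -0.50 (adjusted p = 0.0543), with 569 of all genes passing and P0 wild type reduced to a lone sample that is assumed to vary like the other groups. With weighted arrays, 4 members passed at P0 (Ina, Map2 and Tubb2b lower, Tuba4a higher) among 3083 genes. Of the 13 marker lists, those of microglia, red blood cells and meninges had the highest medians between the same P0 groups. The median difference of knockout minus wild type, 0.07 over all genes, was 0.66 over 8 microglia markers, 1.37 over 3 red blood cell markers and 0.67 over 9 markers of meninges and fibroblasts, with 0 called in each list and 4, 3 and 5 at an unadjusted p under 0.05. It was -0.18 over 10 oligodendrocyte, -0.06 over 8 astrocyte, -0.09 over 6 endothelial and -0.06 over 8 neuron markers, also with 0 called. The summed signal of the 9 meninges and fibroblast markers was 72576 to 102345 in P0 wild type and 143408 to 177693 in P0 knockout. Their part in the member differences was not tested.

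At P5 no member passed either. Here 0.00794% of all genes passed (1 of 12600, against 233 at an unadjusted p under 0.05), and 0 members passed at either level, with an adjusted p of 1 for each. Knockout minus wild type ran from -0.24 for Nefh to 0.15 for Tubb2b. Without overlap between the genotypes, Nefm, Nefh and Tubb4a lay lower and Tubb2b higher in knockout, where 5.25% and 7.68% of all genes were lower and higher without overlap. In the deposited signals this held for Nefh and Tubb2b only. The intervals were -0.53 to 0.06 for Nefh and -0.14 to 0.44 for Tubb2b. For the 2 genes with the lowest unadjusted p at P0, the P5 difference was -0.07 for Ina (interval -0.35 to 0.21) and -0.03 for Map2 (interval -0.34 to 0.29).

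**Figure D4:**
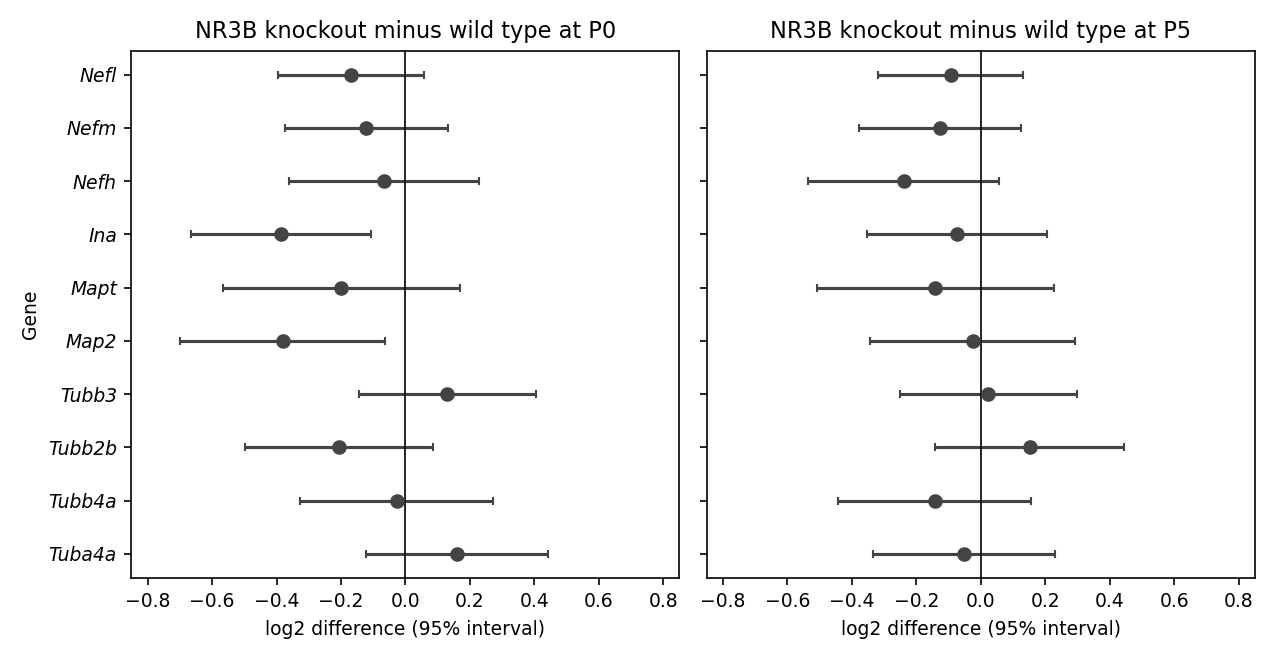
NR3B knockout minus wild type at P0 (left) and P5 (right) as a log2 difference with its 95% interval, for each of the 10 genes. At P0 the intervals of Ina and Map2 lie below 0, and neither passed the threshold after adjustment; at P5 all 10 intervals include 0.

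Averaged over both ages, 0 members passed against 0.0238% of all genes (0.00794% higher and 0.0159% lower), and Ina alone had an unadjusted p under 0.05 (-0.23 (SE 0.09), limma adjusted p = 0.576). Without P0 wild-type sample 2, Ina passed there, and the count over all genes in that setting is not given here. The genotype by age interaction, which asks whether the change from P0 to P5 differed between knockout and wild type, called 0 genes of 12600 and 0 members (0% of all genes, against 623 at an unadjusted p under 0.05, none of them a member). The largest interaction differences were 0.36 (SE 0.19) for Tubb2b, 0.35 (SE 0.21) for Map2 and 0.31 (SE 0.18) for Ina (limma, adjusted p = 0.743 each), a positive value meaning a less negative age difference in knockout. Their intervals, -0.06 to 0.77, -0.10 to 0.81 and -0.08 to 0.71, included 0. The other Ina probe sets read -0.04 and -0.53 in the interaction, opposite in sign to the brightest, and did not pass either. Because the P0 wild-type samples enter both the age difference in wild type and the genotype difference at P0, these values share arrays and are given side by side. With weighted arrays these same 3 genes passed the interaction, where the count over all genes also rose from 0, as given in the closing section.

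Other genes of the same structures were read from 8 lists with 125 genes, of which 113 were tested. Averaged over genotypes, 38 fell (33.6%, against 15.1% of all genes) and 11 rose (9.73%, against 14.6%), with a median of -0.16. Without P0 wild-type samples 1 and 2 the counts were 46 and 14. Between genotypes 0 of the 113 passed in limma at either age, with 25 at an unadjusted p under 0.05 at P0 and 2 at P5.

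Of 10 other tubulins, 3 rose and 1 fell. Tubb6 rose by 0.57 and Tubb4b by 0.35, both beta-tubulins found in many cell types, and Tubg1, the gamma-tubulin that nucleates microtubules at centrosomes, rose by 0.38. With the deposited scaling, 2 of the 10 rose and 0 fell. Of 9 other intermediate filament genes, 3 rose and 1 fell. Gfap, the astrocyte filament, rose by 2.05, Lmnb1, a nuclear lamin, by 0.76 and Vim, the filament of glia and progenitors, by 0.37. Prph, peripherin, the filament of peripheral and motor neurons that co-assembles with neurofilaments, fell by 1.34, or 2.53-fold lower (limma, adjusted p = 2.21e-05). The largest fall among the neurofilament subunits was that of Ina at -0.56, and the difference between them was not tested.

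Of 24 other microtubule-associated genes, 11 fell and 3 rose. Map6, which stabilizes microtubules against cold, fell by 0.99, Map9 by 0.76 and Camsap3, which caps the minus ends of microtubules, by 0.70. Tppp, a microtubule-bundling protein of oligodendrocytes, rose by 1.31. Of 16 tubulin folding and modifying enzymes, 8 fell and 1 rose. Vash2, which removes the terminal tyrosine of alpha-tubulin, fell by 0.80, the glutamylating enzyme Ttll1 by 0.65 and the deacetylase Hdac6 by 0.52, whereas the deacetylase Sirt2 rose by 1.15.

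Of 17 transport motors and adaptors, 7 fell and 0 rose, with Dync1li1, a dynein light intermediate chain, down by 0.98, Kif3a, a kinesin-2 motor, by 0.51, Klc1, a kinesin light chain, by 0.46 and the dynein heavy chain Dync1h1 by 0.44. Of 9 spectrin, ankyrin and linker genes, 5 fell and 0 rose, led by Fhod3, a formin, at -0.56, and including Macf1 and Dst, which link filament systems, at -0.37 and -0.33, and the ankyrin gene Ank2 at -0.35. Of 20 kinases and phosphatases that act on tau and neurofilaments, 3 fell and 1 rose, with the tau kinase gene Mark1 at -0.54, Dyrk1a at -0.33 and the phosphatase subunit genes Ppp2r2b at -0.28 and Ppp2r2c at 0.51. Of 8 stathmins and severing proteins, 2 fell and 0 rose, Fign at -0.62 and Stmn2 at -0.27. Without P0 wild-type samples 1 and 2, 11 of the motors fell.

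**Figure D5:**
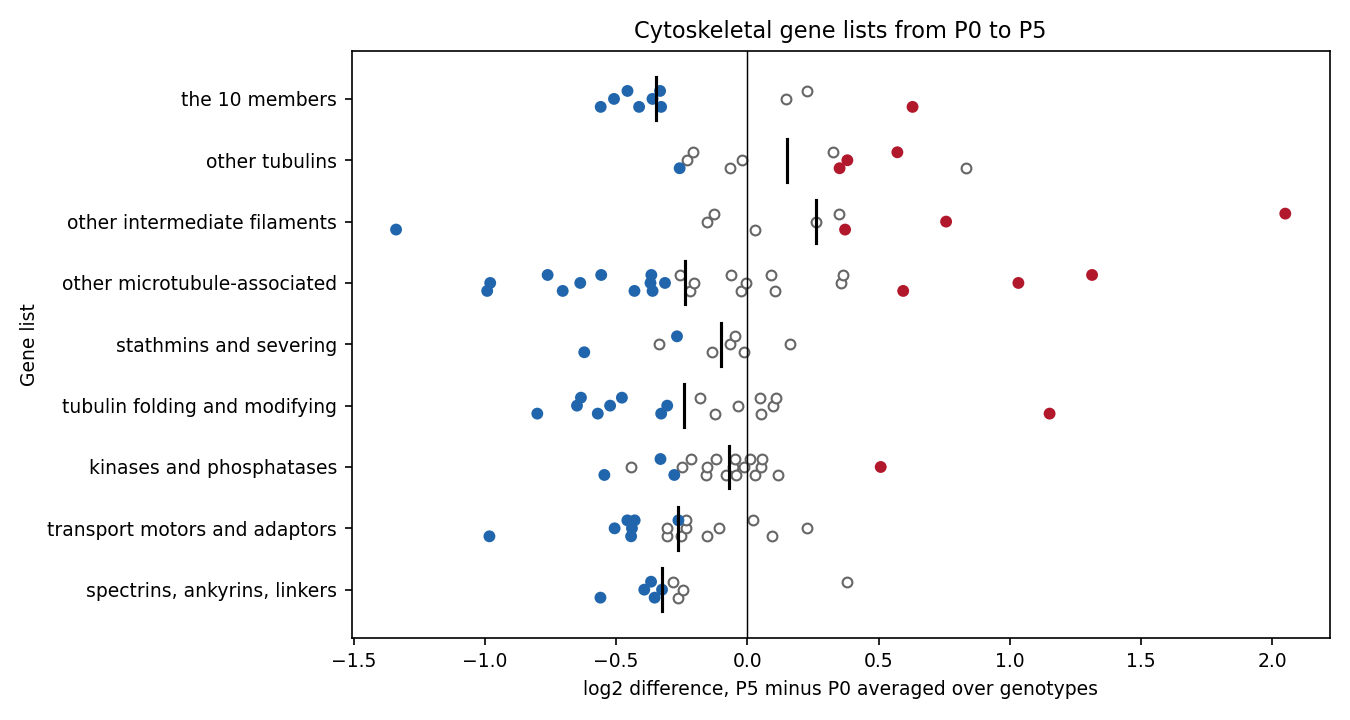
Log2 difference between P5 and P0, averaged over genotypes, for each tested gene of the 8 lists and for the 10 members; coloured points passed in limma (red higher, blue lower), open points did not, and black bars are medians. The lists of motors and of spectrins and ankyrins hold no gene that rose, and Gfap and Prph lie at the outer ends of the intermediate filaments.

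The age comparison also carried changes in the markers of cell types and regions. Of 8 neuron markers, 3 fell (Snap25, Syt1 and Stmn2, by 0.25 to 0.29) and Thy1 rose by 0.87, and the summed signal of the list was 256593 to 320995 in the P0 samples and 233542 to 264000 in the P5 samples. Of 6 tested markers of sensory ganglion neurons, cells rich in neurofilament and peripherin, 4 fell, and the summed signal of the 8 with a probe set was 15850.2 to 25931 at P0 and 8428 to 9709 at P5. Most of that sum came from Prph, Pou4f1 and Ret. Scn10a and Trpv1 were below the filter, and the deposited signals of Scn11a, Avil and P2rx3 overlapped between the ages. All 4 tested motor neuron markers fell, with a summed signal of 9860.0 to 13008 at P0 and 4209 to 5843 at P5 over 6 genes. Chat and Mnx1, which define motor neurons, were below the filter. Prph is in both lists. Of 10 Hox genes, 8 fell, with a summed signal of 35057 to 60726 at P0 and 19971 to 25807 at P5.

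All 10 oligodendrocyte markers rose, with a median of 2.65 and a summed signal of 47744 to 72168 at P0 and 228240 to 286021 at P5. Of 8 astrocyte markers 7 rose, of 8 microglia markers 7 rose, and all 5 markers of dividing cells rose, with 0 falling in each. Among markers of blood, vessels and coverings, 2 of 3 red blood cell, 3 of 6 endothelial and 5 of 9 meningeal and fibroblast markers rose and 0 fell, while of 5 skeletal muscle and 3 forebrain markers 0 passed. The part of these shifts in the fall of the neurofilament, tau and beta-tubulin genes and in the rise of Tuba4a was not tested.

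For each member, the gene whose normalized log2 level ran most like it over the 12 samples was found by Pearson correlation, as a description of arrays that share the split by age. For Tuba4a it was Rnd2, a small GTPase of neurons (r = 0.989), followed by Thrsp and Cdk1 (0.988 each), and for Ina it was Dip2c (0.987). Map2 ran most like Bhlhb9 (0.977), Nefl like Vps35l (0.972), Tubb3 like Cnrip1 (0.960), Tubb2b like Rufy3 (0.958) and Nefm like Stum (0.957). Mapt ran most like Limk2 (0.936), Tubb4a like Csnk2a1 (0.921) and Nefh like Ndufa12 (0.901). Mapre2, which binds growing microtubule ends, ran second to Rufy3 for Tubb2b (0.956), and Kif1a, a motor of synaptic vesicle precursors, followed Limk2 and Cacng3 for Mapt (0.931).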

How the data were processed

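The 12 Affymetrix arrays, 1 per sample, were taken as probe set intensities on a linear scale that the authors had summarized from probes and scaled before they deposited them, as the values show. Their 2% trimmed mean was 2500.01 on each array. The software and the genome build are not given in the sources used here. Of 45101 probe sets, 64 controls were left out; GEO's platform annotation gave 1 gene symbol for 34945, several for 932 and none for 9160. The RefSeq table of GRCm38.p6 held 34741 of the single symbols, and 0 changed.

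Signals were transformed as log2(signal + 16) and quantile-normalized. Probe sets with a mean log2 level below the 40th percentile (8.722) were dropped, and the brightest remaining probe set stood for its gene. limma 3.58.1 (R 4.3.3) fitted group means over the 12 samples (empirical Bayes with an intensity-dependent prior, 8 residual and 5.59 prior degrees of freedom), with Benjamini-Hochberg adjustment over 12600 genes and a threshold of 0.05. The fit was tested on simulated data. A fold is 2 to the power of a log2 difference and understates dim genes. With 3 arrays per group, their number limits the precision. An exact permutation of 3 against 3 samples cannot go below 0.1, so single genes rest on limma.

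The members and lists were chosen with earlier results of these data known. Named genes are the members, Grin3b, up to 4 genes of a list with the smallest p, and the 3 nearest patterns of a member. Markers below the filter (Emx1, Tbr1, Dlx1, Dlx2, Chat, Mnx1, Scn10a and Trpv1) were named after their values were seen. So were those forebrain markers above it, and the sensory ganglion markers Scn11a, Avil and P2rx3. Samples with the same number in different groups deviated together in 5 of 18 pairs (r over 0.1, from -0.125 to 0.418), so the numbers were not taken to pair samples in the main fit. Between P0 wild type and P0 knockout, samples 1, 2 and 3 gave r of 0.418, 0.379 and 0.0561 with the same number. Pairs of different number there ran from -0.417 to 0.121. Whether P0 samples of the same number were handled together is not given by the labels and was not tested. Alternatives were the deposited scaling, pseudocounts of 1 and 64, the filter, the prior, array weights, the samples in the fit, the replicate block, each sample left out, and P0 wild-type samples 1 and 2 left out. The pathway and marker counts under the last and under the deposited scaling were added after seeing the data.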

Additional observations from a re-analysis of the deposited data

How the results depend on the processing

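The age comparison averaged over genotypes called 8 members, and 8 or 9 under the alternatives run, always the same 7 lower and Tuba4a higher, with Tubb4a added under array weights and without P0 wild-type sample 2. No called difference changed sign. Of the 13 ratios, 9 passed, and 7 to 10 under the alternatives. The wild-type count of 7 became 3 with the deposited scaling, 4 with no filter, 4 with a constant prior, 4 with only the groups compared, and 2 to 8 with 1 sample left out; Ina and Tuba4a passed in all 23 alternatives, which held 1 other probe set of each and not the dimmest, at -0.08 and -0.01. The knockout count of 2 became 5 with array weights, 5 without P0 wild-type samples 1 and 2, and 0 to 5 with 1 sample left out. Knockout minus wild type at P0 called 4 members with array weights, 1 without P0 wild-type samples 1 and 2, and 0 to 2 with 1 sample left out. Averaged over ages it called 2 with array weights and 0 to 1 with 1 sample left out, the interaction called 3 with array weights, and at P5 the count was 0 in every alternative. Over all genes at P0, 3 passed, 3083 with array weights, 2680 without P0 wild-type sample 2 and 569 without samples 1 and 2. In wild type 2442 genes passed, 6024 with array weights, 4830 without P0 wild-type sample 2 and 1321 with only the groups compared. The interaction called 0 genes, 1528 with array weights and 209 without P0 wild-type sample 2. Member counts can move with such totals over all genes, which are given for only some of the settings. Where no total is given, a changed member count is not read as a result about the members. The cause of the changes in these counts was not tested. With the replicate number as a block (the replicate block), the counts were 8 in the average, 6 in wild type, 2 in knockout and 0 between genotypes, so it changed the call of a single wild-type member. With 3 arrays per group, the averaged log2 differences had standard errors of 0.07 to 0.12.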
